A study of Rattus norvegicus with 3 samples.

Results

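Genes that drive or restrain cell division, and genes that set off or block apoptosis, were followed in the kidney inner medulla of rats given lithium for 1 month, set against control rats. They were chosen by symbol: 28 named genes together with every annotated gene of the A, B, D, E and G cyclins, the cyclin-dependent kinases and their inhibitors, the Mcm and E2f families, Gadd45, Bcl2 and the caspases. The rule found 53 genes, on 62 probes, among 4390 genes named on the array. On each of 3 spotted arrays the lithium RNA was labelled red and the control RNA green, so that every array is a direct comparison and all 3 form 1 group. For arrays 1 and 2 the RNA of 2 rats was pooled in each channel. Array 3 had a single rat in each, and different rats were used throughout. The sources used here give no strain, sex, age, lithium dose or route. Of the 28 named genes, Btg2, Fas and Mdm2 were not analysed here. Of the 53 found, 50 had a value on all 3 arrays. Casp8 had one on 2 arrays, Bcl2l10 on 1 array and Cdk5r1 on none.

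A probe's deposited value was a log ratio with no stated base, so folds are given for base 10 and for base 2. The ratio was read as lithium over control. That direction is an assumption. The labels assign channel 1 to lithium, but nothing in the file states which channel is the numerator. Values below are centred on each array's median, so 0 means the array's middle probe. A ratio gives no transcript level, so neither the abundance of a gene nor the presence of a cell type could be read from these data. Lithium RNA was red on every array, so a dye effect and an effect of lithium cannot be told apart. The lists of cell type markers were written with earlier results of these data known, so counts from them are descriptions only. Of 12 principal cell markers 11 had means above 0 (median 0.13), and 2 of them, Hsd11b2 and Krt19, passed the test. Of 6 markers of the thin and thick limbs 4 had means below 0 (median −0.07). Of 5 genes listed for the inner medullary collecting duct 4 had means above 0 (median 0.13, with 1, Prom1, past the test). Aqp2 and Avpr2 of these are also counted among the principal cell markers, and Aqp2 read 0.11, 0.26 and 0.14. Akr1b1 lay below 0, at −0.31, −0.28 and −0.21 (limma adjusted p = 0.0616). Of all 3819 features tested, 2127 had means above 0 and 1631 below, and 17 passed the test. The medians were 0.02 for 3 intercalated cell, 0.04 for 9 proximal tubule, −0.01 for 5 endothelial, −0.01 for 13 interstitial and muscle, and 0.01 for 9 leukocyte markers. The leukocyte markers were spread widely, 5 with means above 0 and 3 below, from −0.39 for Itgam to 0.16 for Cd4. Itgam read −0.55, −0.56 and −0.05 (limma adjusted p = 0.142). The part of the cell makeup in any result below was not tested.

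D-type cyclins activate Cdk4 and Cdk6, which phosphorylate the retinoblastoma protein Rb1 and release E2f factors. Cyclin E with Cdk2 then starts DNA synthesis, for which the Mcm helicase is loaded on replication origins, and Cdk1 drives entry into mitosis. Cdkn proteins block these kinases. Apoptosis through mitochondria is set by the balance of Bcl2 relatives that protect the outer membrane and relatives that open it, after which caspases cut cellular proteins. The adult collecting duct divides little, and lithium is known to bring its principal cells back into the cell cycle with many of them halted before mitosis.

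Promoter sequences of 4 genes are shown because their transcripts are the kinases and the helicase subunit described next. Each is the RefSeq window of 300 bases on build GRCr8, 250 before and 50 after the gene's start, 5′ to 3′ on the gene's own strand. Promoter windows were matched for 40 of the 53 genes. The 13 without a match include Mycn, Mcm4 and Cdk17, so their promoters could not be shown. Capitals mark 4 short motifs found on either strand. They are the E2F words TTTCGCGC, TTTGGCGC, TTTCCCGC and TTTGCCGC, the cell cycle homology region (CHR) word TTTGAA, the CCAAT box, and the E-box CACGTG that Myc proteins bind.
Cdk1 (chr20:19265043-19265342, plus strand): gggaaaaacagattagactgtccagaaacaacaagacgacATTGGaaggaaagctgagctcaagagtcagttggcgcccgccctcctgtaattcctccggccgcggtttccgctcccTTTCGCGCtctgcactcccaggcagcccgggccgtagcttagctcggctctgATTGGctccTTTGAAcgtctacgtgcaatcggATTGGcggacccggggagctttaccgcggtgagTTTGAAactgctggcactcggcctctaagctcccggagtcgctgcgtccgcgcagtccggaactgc
Cdk2 (chr7:1721829-1722128, minus strand): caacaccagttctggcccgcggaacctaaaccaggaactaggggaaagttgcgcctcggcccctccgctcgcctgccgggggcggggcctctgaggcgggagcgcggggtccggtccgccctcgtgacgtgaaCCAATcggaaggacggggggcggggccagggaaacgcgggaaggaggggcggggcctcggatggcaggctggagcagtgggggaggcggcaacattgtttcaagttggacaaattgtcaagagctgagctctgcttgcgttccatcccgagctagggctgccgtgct
Cdk4 (chr7:64771203-64771502, plus strand): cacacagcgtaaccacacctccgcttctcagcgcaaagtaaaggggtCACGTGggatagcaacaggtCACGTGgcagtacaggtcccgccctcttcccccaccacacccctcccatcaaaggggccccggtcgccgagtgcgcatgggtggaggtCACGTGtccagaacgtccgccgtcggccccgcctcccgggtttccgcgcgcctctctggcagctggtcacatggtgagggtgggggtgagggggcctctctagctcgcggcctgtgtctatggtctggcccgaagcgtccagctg
Mcm6 (chr13:42404303-42404602, minus strand): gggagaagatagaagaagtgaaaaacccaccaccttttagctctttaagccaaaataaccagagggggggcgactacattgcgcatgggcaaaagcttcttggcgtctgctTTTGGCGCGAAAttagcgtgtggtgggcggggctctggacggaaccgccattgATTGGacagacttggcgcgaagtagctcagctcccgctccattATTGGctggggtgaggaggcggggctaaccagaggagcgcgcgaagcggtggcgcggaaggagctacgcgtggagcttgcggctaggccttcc

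The Cdk1 window held 1 E2F word from base −133 to −126 relative to the start, 2 CHR words from −72 to −67 and from −16 to −11, and 3 CCAAT boxes. The Cdk4 window held 3 E-boxes, which began at −203, −183 and −95. The Mcm6 window held 2 E2F words on opposite strands that overlap each other, from −139 to −132 and from −135 to −128, and 2 CCAAT boxes. The Cdk2 window held 1 CCAAT box and none of the other words. No 2 different motifs overlapped in these windows. Among all 27457 promoter windows of this length, 2.25% held an E2F word, 18.1% a CHR word, 37.7% a CCAAT box and 6.65% an E-box. Among the 40 matched genes the counts were 4, 8, 17 and 4. A match is a description of letters and not of a bound site.

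Mycn was the 1 gene of these 50 that passed the test. It is a transcription factor gene known for driving growth of progenitor cells in the embryonic kidney. Its mean lay below 0, which is lower with lithium if the assumed direction holds. Its log ratios were −0.33, −0.25 and −0.26 on arrays 1, 2 and 3. Every array stood well below 0, and the 3 values lay close together. The mean of −0.28 ± 0.04 (SD, n = 3) had a limma 95% interval from −0.375 to −0.185 and a limma adjusted p of 0.0476. Read in base 10 the mean is 0.525-fold, and read in base 2 it is 0.824-fold. Fewer cells that express a gene and less RNA per cell cannot be told apart in tissue RNA. The call stood at the edge of the threshold. The limma adjusted p was 0.0501 when probes were pooled by symbol alone, 0.0515 with single probes, and between 0.297 and 0.743 with 1 array left out.

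Over all 3819 features, 17 passed a limma adjusted p of 0.05, which is 0.445%, with 0.236% higher and 0.209% lower. The 1 lower and 0 higher gene among 50 are therefore read as single genes and not as a result about the group. At an unadjusted p of 0.05, 14 of the 50 lay past the threshold, 10 with means above 0 and 4 below. That is 28% of these genes, against 17.2% of all features (9.71% above 0 and 7.52% below). Above 0 these were Cdk2, Mcm4, Bad, Mcm6, Cdk17, Ccnd1, Cdk4, Btg1, Faslg and Casp2, and below 0 Mycn, Cdk1, Gadd45g and Id3. A single sign on all 3 arrays was found for 24 of the 50, 16 above 0 and 8 below. That is 48%, against 38.7% of all features, with 24.1% of features above 0 and 14.6% below 0 on every array. Neither the 28% nor the 48% was tested against the share of all features. The genes were also chosen with earlier results of these data known, so both are descriptions only. Counts above and below 0 depend on the centring. The median of the 50 means was 0.03 (0.01 without centring), against 0.01 over all features, and the medians on arrays 1, 2 and 3 were 0.02, 0.05 and 0.00. Means ran from −0.28 for Mycn to 0.19 for Cdk2. The median size of a mean, without its sign, was 0.06 among these genes and 0.05 among all features.

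**Figure D1:**
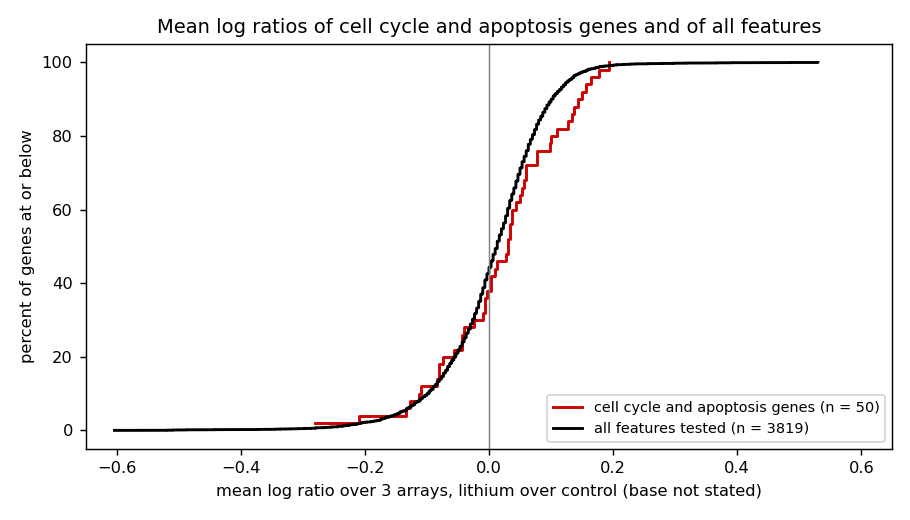
Cumulative percent of genes (vertical axis) at or below a given mean log ratio of lithium over control (horizontal axis, base not stated) for the 50 cell cycle and apoptosis genes and for all 3819 features, which include them. The medians of 0.03 and 0.01 lie close together, and the red curve lies to the right of the black one over most of its upper part.

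Arrays 1 and 3 ranked these genes more alike than arrays 2 and 3. Across the 50 genes Pearson's r was 0.57 between arrays 1 and 2, 0.67 between arrays 1 and 3 and 0.20 between arrays 2 and 3. Over all 3819 features the values were 0.46, 0.48 and 0.16. The genes are not independent of each other, and all ratios of 1 array share its hybridisation, so these are descriptions only. Empty spots made up 7 of the 62 probes on array 3 (11.3%), against 25.6% of all its probes, and 1 and 2 of the 62 on arrays 1 and 2.

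Among the kinases that carry the cycle, Cdk2 and Cdk4 had ratios above 0 on every array and Cdk1 had ratios below 0 on every array. None of these 3 passed the test over all features. Cdk2, the partner of cyclin E at the start of DNA synthesis, read 0.23, 0.23 and 0.12. Its mean was 0.19 ± 0.06 (SD, n = 3, limma adjusted p = 0.125), with a 95% interval from 0.092 to 0.294. Array 3 read lowest for Cdk2, although still above 0. Cdk4, the partner of D-type cyclins, read 0.09, 0.20 and 0.12, with a mean of 0.14 ± 0.06 (limma adjusted p = 0.182). Here array 2 was the highest. Cdk1, the mitotic kinase, read −0.20, −0.33 and −0.10. Its mean was −0.21 ± 0.12 (limma adjusted p = 0.140), and its interval ran from −0.333 to −0.0875. All 3 arrays read below 0 for Cdk1, array 2 lowest. In base 10 these means are 1.56-fold for Cdk2, 1.37-fold for Cdk4 and 0.617-fold for Cdk1, and in base 2 they are 1.14-fold, 1.10-fold and 0.865-fold. Cdk1 and Cdk2 passed under 3 other settings, with arrays scaled to the same spread (limma adjusted p of 0.0482 and 0.0499), a robust prior (0.0488 and 0.0462) and array weights (0.00360 and 0.00203). Those settings took the calls over all features to 98, 94 and 1055, against 17. With no shared prior the limma adjusted p was 0.459 for Cdk1 and 0.408 for Cdk2, and with 1 array left out it lay between 0.297 and 0.743 for both.

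The other kinases lay mostly near 0. Cdk17, of the PCTAIRE kinases outside the core cycle, read 0.17, 0.18 and 0.10, with a mean of 0.15 ± 0.04 (SD, n = 3, limma adjusted p = 0.156). All 3 of its values lay above 0. Cdk6, the second partner of D-type cyclins, read 0.11, 0.02 and 0.05, and Cdk11b, a kinase tied to transcription and splicing, read 0.02, 0.12 and 0.03. Both were above 0 on every array, with means of 0.06 ± 0.05 and 0.06 ± 0.06. Cdk7, which activates other Cdks, read 0.07, −0.07 and 0.11, and so changed sign between arrays. The means of Cdk18, Cdk5 and Cdk16 were 0.00, 0.00 and −0.04. Cdk5, best known from neurons, read −0.03, 0.21 and −0.19, the widest spread of the 50 genes. The rule also took in 4 genes named after their binding to Cdk5. Of these Cdk5rap1 had a mean of 0.06 ± 0.01, Cdk5rap2, a centrosome protein gene, −0.08 ± 0.04 and Cdk5rap3 −0.08 ± 0.13.

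None of 5 cyclins and 3 inhibitors passed the test. Ccnd1, cyclin D1, read 0.23, −0.03 and 0.23. Arrays 1 and 3 agree in size while array 2 lay on the other side of 0, and the mean of 0.14 ± 0.15 (SD, n = 3) had a limma adjusted p of 0.278. Ccnd2 read 0.00, −0.06 and −0.07, and Ccnd3 read 0.06, 0.06 and −0.03. The 3 D-type cyclins therefore gave means of 0.14, −0.04 and 0.03. Ccne1, the cyclin E1 that activates Cdk2, averaged 0.03 ± 0.11, and Ccng1, a p53 target, 0.05 ± 0.08. No cyclin had 1 sign on all 3 arrays, and no A-type or B-type cyclin gene was analysed here. The inhibitor Cdkn1b read −0.12, 0.00 and −0.21, with a mean of −0.11 ± 0.11 (limma adjusted p = 0.316). The p53-induced inhibitor Cdkn1a read 0.10, 0.12 and 0.01, with a mean of 0.08 ± 0.06 (limma adjusted p = 0.392). Thus Cdkn1a was at or above 0.01 on every array while Cdkn1b was at or below 0. Cdkn2a averaged 0.03 ± 0.03.

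The 4 replication genes had means above 0, except that Top2a read −0.01 without centring, and none passed the test. Mcm4, a subunit of the replicative helicase, read 0.16, 0.20 and 0.17, with a mean of 0.18 ± 0.02 (SD, n = 3, limma adjusted p = 0.124). Its 3 values were among the closest together of the 50 genes, and its 95% interval ran from 0.085 to 0.268. Mcm6, a second subunit, read 0.18, 0.06 and 0.23, with a mean of 0.16 ± 0.09 (limma adjusted p = 0.176). Both subunits were above 0 on every array, array 2 giving the lowest value for Mcm6 and the highest for Mcm4. In base 10 these means are 1.50-fold and 1.43-fold, and in base 2 1.13-fold and 1.11-fold. Pcna, the sliding clamp of DNA polymerases, read 0.04, −0.01 and 0.12 (mean 0.05 ± 0.07, limma adjusted p = 0.585). Top2a, the topoisomerase used as a marker of late cycle, read 0.00, 0.09 and −0.06 (mean 0.01 ± 0.08, limma adjusted p = 0.933). The interval of Top2a, from −0.095 to 0.115, covers 0.803-fold to 1.30-fold in base 10 or 0.936-fold to 1.08-fold in base 2.

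E2f1, an activating E2f, read 0.02, 0.14 and 0.07, and E2f5, a repressive one, read 0.04, 0.08 and 0.18. Both were above 0 on every array, with means of 0.08 ± 0.06 (SD, n = 3, limma adjusted p = 0.394) and 0.10 ± 0.07 (limma adjusted p = 0.305). Rb1, which holds E2f factors inactive, read 0.02, 0.08 and −0.09, with a mean of 0.00 ± 0.09 (limma adjusted p = 0.973).

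**Figure D2:**
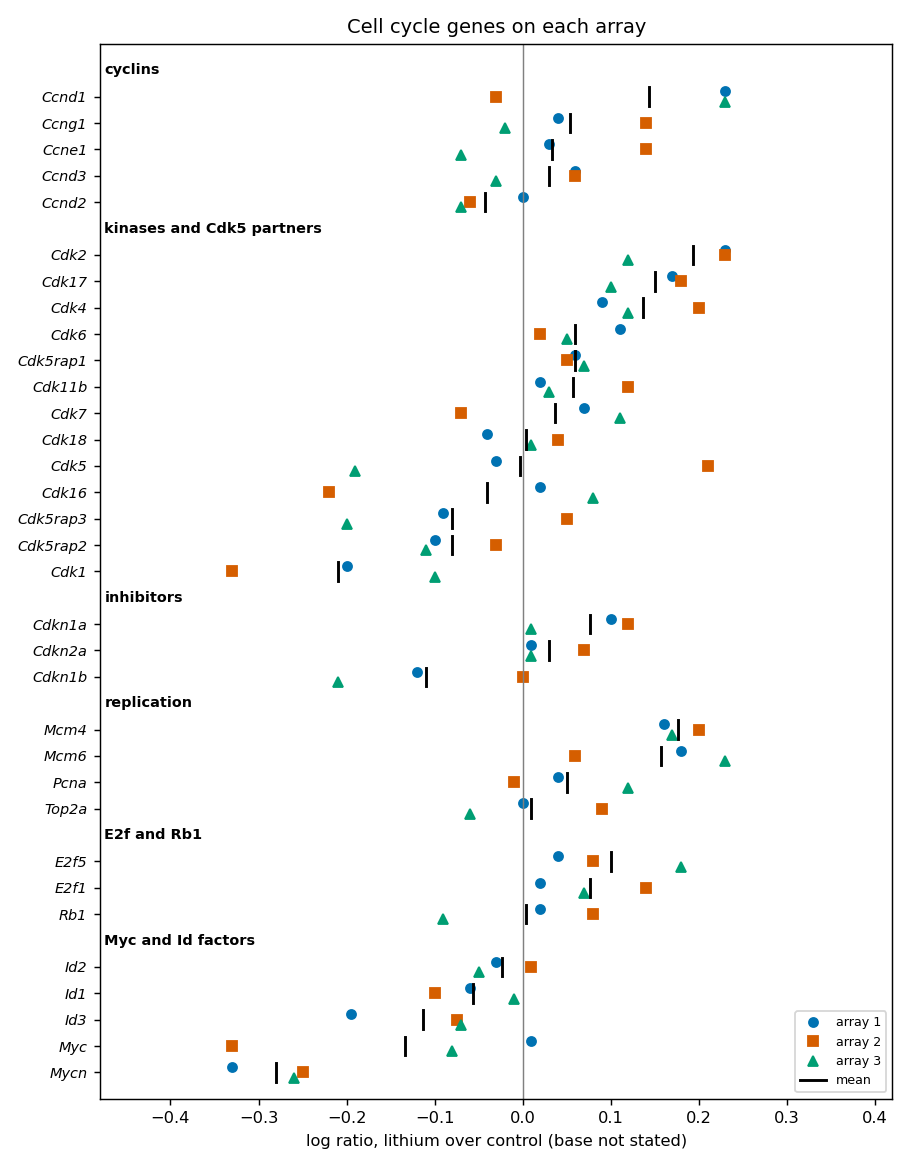
Log ratio of lithium over control (horizontal axis, base not stated) for each cell cycle gene on arrays 1, 2 and 3 (circle, square, triangle), with the mean as a bar, ordered by mean within each role. Mycn and Cdk1 lie below 0 on every array, and Cdk2, Cdk4, Cdk17, Mcm4 and Mcm6 lie above 0 on every array.

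The Myc and Id genes all had means below 0, and of the 5 only Mycn passed. Myc, the close relative of Mycn, read 0.01, −0.33 and −0.08, with a mean of −0.13 ± 0.18 (SD, n = 3, limma adjusted p = 0.353). Array 2 alone carried most of that mean, unlike Mycn, whose arrays lay close together. Id proteins pair with basic helix-loop-helix factors and keep them off DNA. Id3 read −0.20, −0.08 and −0.07, averaged over probes, with a mean of −0.11 ± 0.07 (limma adjusted p = 0.256). With probes measured on all 3 arrays only, the mean of Id3 was −0.06 (limma adjusted p = 0.487). Id1 read −0.06, −0.10 and −0.01, with a mean of −0.06 ± 0.05, and Id2 had a mean of −0.02 ± 0.03. Id1 and Id3 were below 0 on every array, and Id2 changed sign on array 2. The median of the 5 means was −0.11.

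Of 3 growth arrest genes 1 had a mean above 0 and 2 below, of which Gadd45a was at 0.000375 with arrays scaled to the same spread, and none passed. Btg1, an antiproliferative gene of the BTG/TOB family, read 0.11, 0.12 and 0.17, with a mean of 0.13 ± 0.03 (SD, n = 3, limma adjusted p = 0.176). Gadd45g, a stress sensor induced by growth arrest, read −0.16, −0.07 and −0.15, with a mean of −0.13 ± 0.05 (limma adjusted p = 0.194). These 2 kept opposite signs on all 3 arrays. Gadd45a, the DNA damage-induced relative, read −0.08, −0.07 and 0.13, with a mean of −0.01 ± 0.12 (limma adjusted p = 0.958). The array with 1 rat per channel differed in sign from both pooled arrays for this gene.

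Bad had the highest mean of the Bcl2 relatives measured on all 3 arrays. Of these 9, 5 had means above 0, 4 below, and none passed, with Bax and Bcl2l2 on the other side of 0 under array weights (0.0448 and −0.00858). Bad, which binds and disables protective relatives, read 0.19, 0.13 and 0.18, with a mean of 0.17 ± 0.03 (SD, n = 3, limma adjusted p = 0.136). Among the other relatives that promote apoptosis, Bcl2l11 had a mean of 0.10 ± 0.18, Bid −0.01 ± 0.08, Bax −0.01 ± 0.12 and Bok −0.04 ± 0.01. Bax, a pore former of the outer membrane, read 0.07, 0.05 and −0.15. Its interval from −0.136 to 0.116 covers 0.732-fold to 1.31-fold in base 10 or 0.910-fold to 1.08-fold in base 2. Of the protective relatives, Bcl2 read −0.04, 0.00 and −0.18, averaged over probes, with a mean of −0.07 ± 0.09 (limma adjusted p = 0.464). Bcl2l1 averaged 0.03 ± 0.12 (limma adjusted p = 0.827), Bcl2l2 0.04 ± 0.08 and Mcl1 0.04 ± 0.14 (limma adjusted p = 0.786). Mcl1 read 0.07, 0.16 and −0.12, and Bcl2l1 read 0.05, 0.14 and −0.11. For Bax, Bcl2l1 and Mcl1, array 3 was the one below 0. Bcl2l10, a further relative of the family, read −0.13 on array 1, the 1 array that measured it.

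None of the 4 caspases measured on all arrays passed, 3 having means above 0 (Casp6 read −0.01 without centring) and 1 below. Casp2, an initiator caspase, read 0.11, 0.10 and 0.12, with a mean of 0.11 ± 0.01 (SD, n = 3, limma adjusted p = 0.216). Casp8, the initiator that death receptors recruit, read 0.11 and 0.11 on arrays 1 and 2 and was not tested. Casp9, the initiator downstream of mitochondria, read 0.01, 0.16 and −0.07, averaged over probes, with a mean of 0.03 ± 0.11 (limma adjusted p = 0.783). Casp6, an executioner caspase, averaged 0.01 ± 0.09. Casp1, which matures interleukin-1β, read −0.01, −0.22 and −0.02, so that its mean of −0.08 ± 0.12 came mainly from array 2. Faslg, the ligand of the Fas death receptor, read 0.10, 0.21 and 0.07, with a mean of 0.13 ± 0.07 (limma adjusted p = 0.218). Casp2 and Faslg were above 0 on every array.

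**Figure D3:**
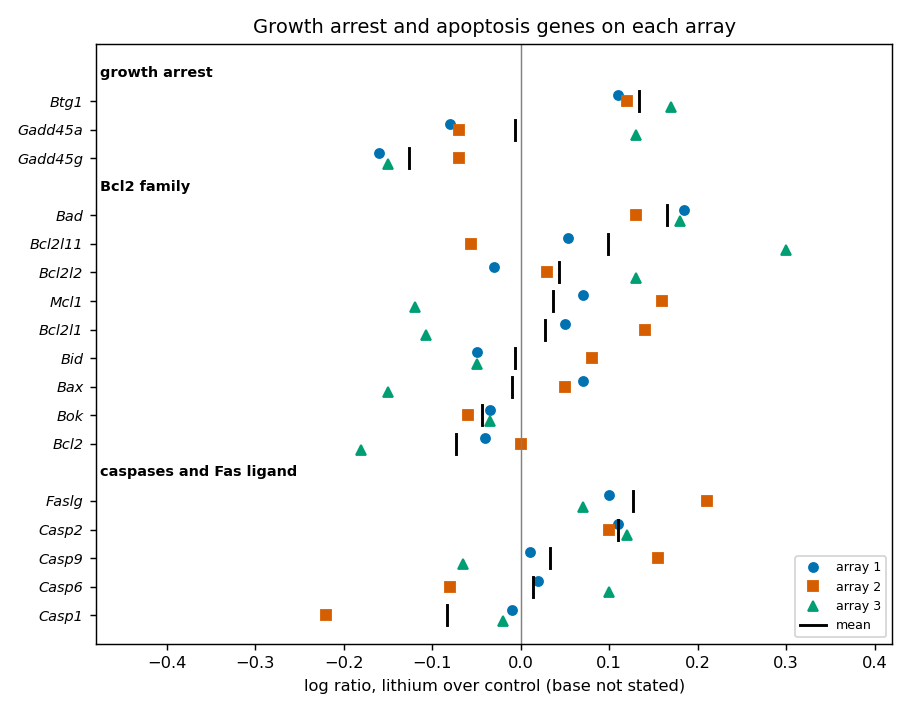
Log ratio of lithium over control (horizontal axis, base not stated) for each growth arrest and apoptosis gene on arrays 1, 2 and 3 (circle, square, triangle), with the mean as a bar, ordered by mean within each role. Btg1, Bad, Faslg and Casp2 lie above 0 on every array, and Gadd45g, Bok and Casp1 lie below 0 on every array.

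**Figure D4:**
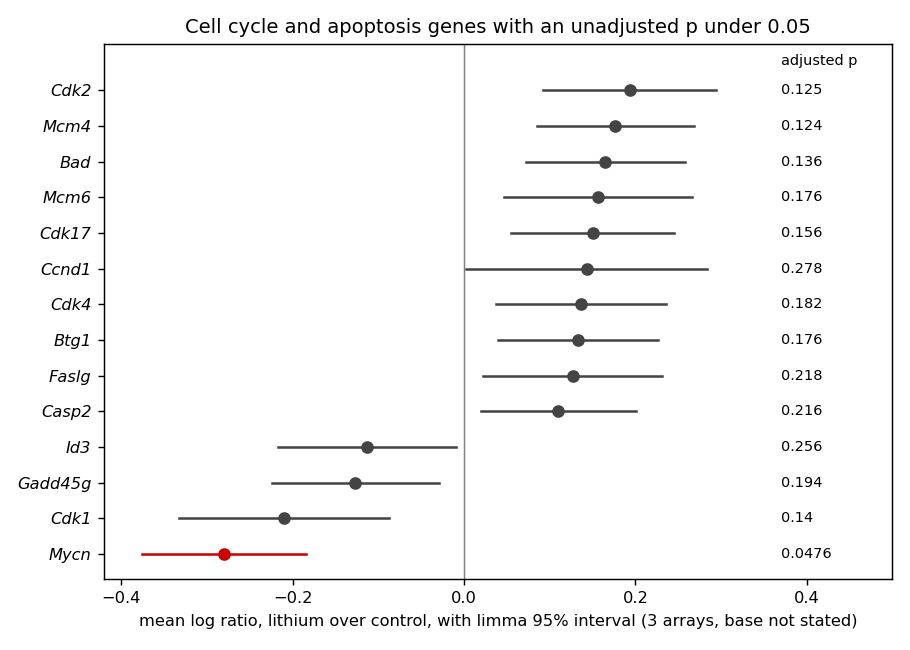
Mean log ratio of lithium over control (horizontal axis, base not stated) with its limma 95% interval over 3 arrays for the 14 genes with an unadjusted p under 0.05, and their limma adjusted p at the right. Mycn, in red, is the one below an adjusted p of 0.05 (0.0476), and the others have adjusted p from 0.124 for Mcm4 to 0.278 for Ccnd1.

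Probes of 1 gene did not always read alike. Of the 53 genes 7 had several probes. The 2 probes of Bcl2 read 0.10 and −0.46 on array 3, a gap of 4.86 SDs of that array, while on arrays 1 and 2 they lay 0.10 and 0.06 apart. The probes of Bcl2 therefore disagreed in sign, with means of 0.05 and −0.19 for each alone. The 2 probes of Id3 read −0.07 and −0.32 on array 1, 1.85 array SDs apart, and the lower one had no value on array 3. For Bad the pair of probes gave 0.10 and 0.27 on array 1, where the lower of them was missing from array 3. The 3 probes of Bcl2l11 read 0.09, 0.04 and 0.03 on array 1, and the value of 0.30 on array 3 came from the first of them alone. The small SD of Bok came from averaging, since its 2 probes read −0.17 and 0.05 on array 2 and −0.13 and 0.06 on array 3. For Casp9 the gaps were 0.14, 0.03 and 0.13, and for Bcl2l1 none of the 3 arrays had a gap above 0.15.

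**Figure D5:**
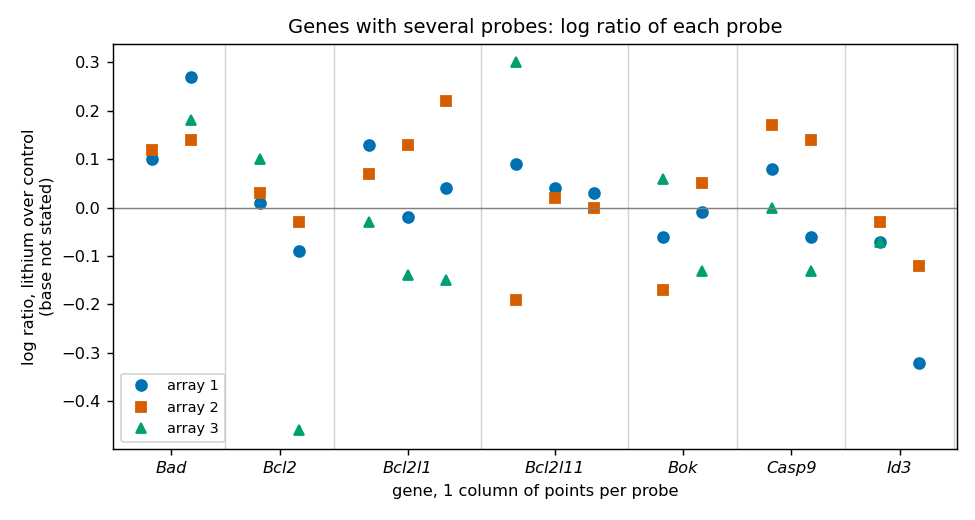
Log ratio of lithium over control (vertical axis, base not stated) of every probe of the 7 genes with several probes, 1 column of points per probe, on arrays 1, 2 and 3 (circle, square, triangle). The lowest point is the second Bcl2 probe on array 3, at −0.46, and its partner reads 0.10 there.

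Other genes of the same pathways were read from a list of 187 symbols, of which 78 were on the array and 67 were measured on all 3 arrays. None of the 67 passed in either direction, 37 had means above 0 and 28 below, and their median was 0.01. At an unadjusted p of 0.05, 6 lay above 0 and 4 below, which is 14.9%, against 17.2% of all features. Plk2, a polo-like kinase of the early cycle and centriole duplication, had the lowest mean of them. It read −0.22, −0.42 and −0.15, with a mean of −0.26 ± 0.14 (SD, n = 3, limma adjusted p = 0.122). Array 2 was the lowest for Plk2, as it was for Cdk1. Gas6, a growth arrest-specific ligand of TAM receptors, read 0.16 on each array (limma adjusted p = 0.136). Both Cflar and Birc2, inhibitors of caspase activation, also lay above 0 on every array. The relatives of Birc2 on the list did not: Birc3 read 0.11, −0.04 and 0.01, and Xiap read 0.02, 0.14 and −0.14. Cflar, which keeps Casp8 inactive, averaged 0.14 ± 0.03 (limma adjusted p = 0.172) and Birc2, a cellular inhibitor of apoptosis, 0.13 ± 0.04 (limma adjusted p = 0.181). Prim2, a DNA primase subunit, averaged 0.10 ± 0.06 (limma adjusted p = 0.270), and Smc3, a cohesin subunit, −0.11 ± 0.04 (limma adjusted p = 0.230). Of the remaining 4 with an unadjusted p under 0.05, Cdc5l and Pdcd6ip averaged 0.10 and 0.12, and Gas7 and Tnfrsf1b averaged −0.11 each. Among further genes of mitosis, Plk1, Aurkb, Bub1b and Cdc20 averaged −0.08, 0.00, 0.05 and −0.003. Among further replication genes, Prim1 and Fen1 averaged 0.08 and 0.09, and Pola2 and Rfc1 −0.01 each. Rpa2 and Tyms averaged −0.11 and −0.17, with −0.59 and −0.80 on array 2 and values above 0 on arrays 1 and 3.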

How the data were processed

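RNA of 3 two-colour arrays was compared as lithium over control. The authors deposited log ratios with 2 decimals for 5760 probes. The sources used here do not give the log base, scanner, background correction, normalization or filters, and whether the authors centred the ratios and their direction stayed unknown. Deposited medians were −0.02, −0.04 and 0.00 on arrays 1, 2 and 3, where 5582, 5682 and 4287 probes had a value. Gene names came from GEO's annotation of the platform, which can be out of date: 5064 probes had 1 symbol, 9 had several and stayed unnamed with those not listed. Gene IDs were set against RefSeq's table of GRCr8. Among IDs found there 0 symbols needed an update, and symbols of any other ID could not be checked.

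Each array was centred on its median over all probes and probes of 1 gene ID were averaged. The 3819 of 5086 features measured on all 3 arrays entered a limma fit (3.58.1, R 4.3.3) of the mean ratio against 0. Its moderated two-sided p-values were adjusted by Benjamini-Hochberg over all of them, and 0.05 was the threshold. Intervals are limma's 95% intervals. The labels name different rats per array, so the SD includes the spread between rats or pools, and 3 arrays limit the precision. No design in this series shares replicate numbers between groups, so no pairing was tried. The fit was also run on simulated data drawn from its own estimated variances, with no effect shared within an array. That run checked the code only and lends no support to the calls here. Figures were drawn with Python 3.11.15 and matplotlib 3.10.9.

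The genes, lists and tests were chosen with earlier results of these data known. Values on every array are given for genes with an unadjusted p under 0.05 and for a fixed list of core cycle and apoptosis genes. Some other genes were given in full after their values were seen. Protein sequences were not used here. Alternatives were other centrings, scaling, probe rules, weights, priors and thresholds, and each array left out. Pooling probes by symbol alone was chosen after seeing the data.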

Additional observations from a re-analysis of the deposited data

How the results depend on the processing

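Mycn kept its direction in every alternative tried, with a mean between −0.32 and −0.25, but its call did not hold in all of them. The number of these genes past the threshold was 1 as reported. It was 3 with arrays scaled to the same spread and 3 with a robust prior (Mycn, Cdk1 and Cdk2 in both), and 18 with array weights. It was 0 with features on at least 2 arrays, with probes on all 3 arrays only, with single probes, with no shared prior, with probes pooled by symbol alone, and with each array left out. The adjusted p of Mycn was then 0.0559, 0.0555, 0.0515, 0.377, 0.0501 and 0.297 to 0.743. Of all features 17 passed. The count was 98 when scaled, 94 with the robust prior, 1055 with array weights, 40 with features on at least 2 arrays, 9 with probes on all 3 arrays only, 11 with single probes, 13 when pooled by symbol, 49 at an adjusted p of 0.10, and 0 with no shared prior or with any array left out. Where 0 of these genes were called, 13, 13, 14, 10 and 14 of them had an unadjusted p under 0.05 in the first 5 of those settings. Over all features 992, 659, 734, 442 and 657 did so in the same settings. Without array 1, 2 and 3 the counts were 2, 13 and 6 of these genes, against 174, 606 and 734 of all features. The number of features tested was not the same in every setting, so these counts are descriptions only. With no shared prior the p-values are those of an ordinary one-sample t-test and not limma's moderated ones. Array weights gave array 1 a weight of 4.52, against 0.371 and 0.596, so those calls rest largely on array 1. The median of the 50 genes ran from 0.01 to 0.05. Of the 50, 34 kept 1 sign throughout and 16, all within 0.10 of 0, did not. Without centring Casp6, Cdk18, Rb1 and Top2a read −0.00667, −0.0167, −0.0167 and −0.01, and centred on features of all 3 arrays −0.00333, −0.0133, −0.0133 and −0.00667. Scaled, Cdk18, Gadd45a and Rb1 read −0.000751, 0.000375 and −0.00526. With array weights Bax, Bcl2l2, Cdk16, Cdk18 and Top2a read 0.0448, −0.00858, 0.0103, −0.0292 and −0.000432. Single probes of Bcl2, Bcl2l1 and Casp9 read 0.0467, −0.01 and −0.0167. With 1 array left out, the ranges were −0.05 to 0.06 for Bax, −0.0283 to 0.095 for Bcl2l1, −0.00167 to 0.177 for Bcl2l11, −0.05 to 0.015 for Bid, −0.03 to 0.06 for Casp6, −0.0275 to 0.0825 for Casp9, −0.02 to 0.085 for Ccne1, −0.10 to 0.05 for Cdk16, −0.015 to 0.025 for Cdk18, −0.11 to 0.09 for Cdk5, −0.075 to 0.03 for Gadd45a, −0.025 to 0.115 for Mcl1, −0.035 to 0.05 for Rb1 and −0.03 to 0.045 for Top2a. The causes were not tested. No paired analysis was possible because all 3 arrays form 1 group of direct comparisons. No spot intensities were used, so signal over background is unknown.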
